A study of Mus musculus with 12 samples.

Results

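The comparison described here sets 4 mouse tumours harvested at the terminal time point of a drug combination against 4 harvested while regressing under the same drugs, 8 of the 12 tumours sequenced in the study. The groups were read from the titles, Combo for the terminal and Regress for the regressing tumours, and from the harvest time given with them. All genes were compared. The tumours, malignant peripheral nerve sheath tumours, are sarcomas that grow from the covering of nerves. They were induced in mice of strain C57B/6, genotype WT, by an adenovirus with cas9 against Nf1 and Cdk2na, a spelling read here as Cdkn2a. Terminal and regressing tumours both came from mice given palbociclib (100 mg/kg) and mirdametinib (1 mg/kg) each day by mouth. The 4 remaining tumours, used only for context, had the vehicle and were taken at the terminal time point. The design text speaks of tumours sensitive and resistant to the combination, but the labels do not tie either word to the terminal or the regressing group. Harvest stage and tumour state therefore cannot be told apart, and neither can time on drug. Whether each tumour had a mouse of its own is not labelled, so p-values measure only the spread among these libraries, which may be technical.

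Palbociclib blocks CDK4 and CDK6, the kinases that cyclin D switches on to inactivate the retinoblastoma protein and let E2F factors start DNA synthesis. Mirdametinib blocks MEK, the kinase above ERK in the RAS pathway. Loss of Nf1 removes a brake on RAS, and loss of Cdkn2a removes a brake on CDK4 and CDK6, so the drugs act on the pathways that the engineered changes release. Antibody-secreting plasma cells, T cells and B cells can enter such tumours from outside, and their transcripts are then read together with those of the tumour.

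Total counts were between 13194699 and 21935527 in the 8 treated libraries, and a count of 0 allowed at most 0.137 to 0.227 CPM (counting error only). CPM is the count divided by library size with TMM adjustment. Nf1, which encodes the RAS regulator neurofibromin, averaged 16.8 ± 5.16 CPM in terminal and 15.2 ± 3.75 CPM in regressing tumours (SD, n = 4 each). Cdkn2a, which encodes p16 and p19, stood at 21.2, 257, 125 and 24.8 CPM in terminal tumours 1 to 4 and at 393, 7.49, 227 and 96.6 CPM in regressing tumours 1 to 4, and such gene totals cannot show an edit. Sox10, a defining Schwann lineage factor, was at 0 to 2.10 CPM in terminal and 0.540 to 1.16 CPM in regressing tumours, so the sheath origin on the label was not visible in that marker. Reads of 18 skeletal muscle genes made up 0.342% to 3.90% of terminal and 0.527% to 6.10% of regressing libraries, with the highest shares in regressing tumours 1 and 4 and terminal tumour 2. The 12 adipocyte genes summed to 106 to 685 CPM in terminal and 281 to 2375 CPM in regressing tumours, and regressing tumour 4 was the highest. These tissues move with several results, and their part in them was not tested.

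By edgeR's quasi-likelihood test, no gene differed between terminal and regressing tumours at an adjusted p under 0.05: 0 of 15650 genes, or 0.0%, with a smallest adjusted p of 0.481. Without adjustment, 645 genes (4.12%) had a p under 0.05 with a higher level in terminal tumours, and 454 (2.9%) with a lower one. DESeq2, run as an alternative, called 24 genes higher (0.155%) and 27 lower (0.174%) in terminal tumours at an adjusted p under 0.05, and limma voom with sample quality weights called 0. In 375 genes (2.4%) every terminal tumour was above every regressing tumour, and in 236 (1.51%) every one was below. The vehicle mean lay nearer the terminal than the regressing mean in 290 of those 375 and 169 of those 236. The share over all genes was not computed, so these counts do not show which treated group departed from vehicle. The median log2 difference over all genes was 0.01, and differences below are terminal minus regressing from the edgeR fit. Where groups are said not to overlap, no terminal tumour lay within the range of the regressing tumours.

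Immunoglobulin genes were lower in terminal than in regressing tumours. Together they took 0.00668% ± 0.00206 of reads in terminal, 0.125% ± 0.0828 in regressing and 0.0129% ± 0.0113 in vehicle tumours (SD, n = 4 each). The shares were 0.00723%, 0.00426%, 0.00605% and 0.00917% in terminal tumours 1 to 4, and 0.0919%, 0.205%, 0.0238% and 0.178% in regressing tumours 1 to 4. The groups did not overlap, and an exact two-sided permutation test gave p = 0.0286, the smallest that 4 against 4 allows, or 0.0571 adjusted over 2 read shares. In bulk tissue, fewer cells of a type and less RNA per cell cannot be told apart.

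All 10 tested immunoglobulin constant genes were lower in terminal tumours, with a median log2 difference of -4.45 against 0.01 over all genes, and -3.49 without regressing tumour 4. In 6 of the 10 the groups did not overlap, where 1.51% of all genes did so in that direction. An unadjusted p under 0.05 was found in 9 of 10. With a stricter filter on low counts (at least 1 CPM in 4 libraries), 6 were lower and 0 higher, with a median of -3.87. Constant genes near the level of a few reads in terminal tumours passed the main filter mainly through the regressing group. The counts of such genes are no separate support. Igkc (ENSMUSG00000076609, chromosome 6, 70726435 to 70726966, GRCm38), the constant region of the kappa light chain, stood at 12.6, 4.11, 18.2 and 19.1 CPM in terminal tumours 1 to 4, against 429, 900, 87.8 and 625 CPM in regressing tumours 1 to 4. Regressing tumour 3 was the lowest of its group and still above every terminal tumour. The log2 difference was -5.24 (SE 1.15), and edgeR's adjusted p was 0.692. In the same tumours Ighm, the heavy chain of IgM, was at 45.6, 35.3, 16.2 and 53.7 CPM in terminal and 378, 636, 81.6 and 695 CPM in regressing tumours. Ighg2c, the heavy chain of a switched IgG class, was at 0.768, 4.76, 0.587 and 2.23 CPM in terminal and 27.4, 40.6, 12.9 and 83.2 CPM in regressing tumours, and was named after its values were seen. Both heavy chain genes were without overlap. Of 14 tested variable gene segments, which encode the antigen-binding ends of antibodies, 14 were lower in terminal tumours and 10 did not overlap (1.51% of all genes in that direction). Summed, they were at 1.59, 0.417, 5.62 and 1.03 CPM in terminal and 75.0, 183, 18.1 and 67.4 CPM in regressing tumours. Segments this low in terminal tumours passed the filter on low counts mainly through the regressing group. Their direction was thus largely set by the filter and is no separate support. Immunoglobulin genes resemble each other, so reads may be split among them in ways the sources used here do not give.

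Among 13 tested plasma cell markers, 11 were lower in terminal tumours, 2 of them without overlap (1.51% of all genes). The median was -0.70, or -0.44 without the 3 muscle-rich libraries. With the stricter filter on low counts it was -0.28, with 7 genes lower and 2 higher. Jchain, which joins IgM and IgA chains into secreted polymers, was at 0.665, 0.476, 1.03 and 3.88 CPM in terminal tumours 1 to 4, against 43.1, 109, 8.52 and 53.5 CPM in regressing tumours 1 to 4. It had the smallest p among protein-coding genes lower in terminal tumours with a mean of at least 5 CPM in either group, with a log2 difference of -5.14 (SE 1.16). Mzb1, a chaperone of antibody assembly, was at 0, 0.0596, 0.342 and 0.114 CPM in terminal and 2.04, 4.76, 0.577 and 11.9 CPM in regressing tumours. All 4 terminal values of Mzb1 are near the level of a few reads. A gene this low in terminal tumours could pass the filter only through the other groups, so its direction is no separate support. Pou2af1, a transcription coactivator of B lineage cells, did reach as low in regressing tumour 3, at 0.399 CPM, as in the highest terminal tumour, at 0.456 CPM. The plot of single tumours on a log axis shows this set beside markers of other immune cells.

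**Figure D1:**
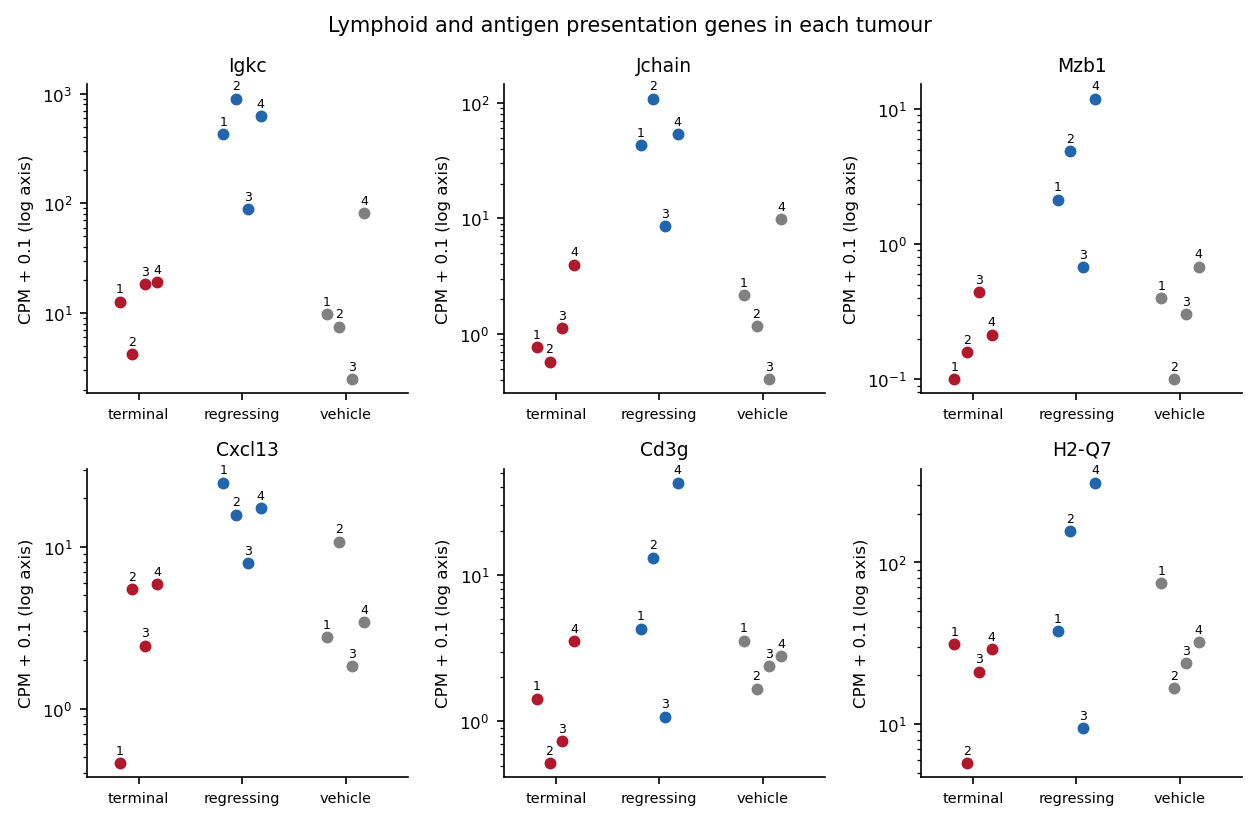
Levels of 6 immune genes in each tumour, as CPM with 0.1 added on a log axis, for terminal, regressing and vehicle tumours from left to right (points numbered by replicate). For Igkc, Jchain, Mzb1 and Cxcl13 all 4 terminal tumours lie below all 4 regressing tumours, whereas for Cd3g and H2-Q7 regressing tumour 3 lies among the terminal tumours.

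T cell markers were also lower in terminal tumours, but the regressing tumours differed widely among themselves. All 19 were lower, with a median of -3.05, and 16 of 19 had an unadjusted p under 0.05 (2.9% of all genes in that direction), yet none was free of overlap. Cd3g, which encodes a CD3 chain of T cells, was at 1.33, 0.417, 0.635 and 3.42 CPM in terminal tumours 1 to 4 and at 4.21, 13, 0.976 and 42.7 CPM in regressing tumours 1 to 4. Regressing tumour 4 was far above the rest and regressing tumour 3 lay within the terminal range. Without regressing tumour 4 the median of the list was -1.16. Cytotoxic lymphocyte genes had 11 of 14 lower with a median of -1.14, which was 0.01 without regressing tumour 4 and -2.16 without terminal tumour 4.

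Of 12 B cell markers, 6 passed the filter on low counts. All 6 were lower in terminal tumours, with a median of -1.82, or -0.76 without regressing tumour 4. Cd79a, part of the B cell receptor, was at 0.102, 0, 0.978 and 0.228 CPM in terminal and 1.02, 1.97, 0.399 and 58.0 CPM in regressing tumours. It passed that filter mainly through tumours outside the terminal group, so its direction is no separate support. Only Ebf1, a B lineage factor that fat cell precursors also use, was without overlap, at 10.9 to 29.3 CPM in terminal and 37.5 to 50.3 CPM in regressing tumours. That is 1 of 6 genes, against 1.51% of all genes in that direction. Regressing tumour 4 also had the highest adipocyte score of the 8 tumours, at 5.59, and the part of that tissue in these lists was not tested.

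All 9 tested lymphoid chemokines and addressins were lower in terminal tumours, with a median of -1.87, or -0.87 without regressing tumour 4. Cxcl13, the chemokine that guides B cells into follicles, stood at 0.358, 5.36, 2.35 and 5.76 CPM in terminal tumours 1 to 4, against 24.9, 15.7, 7.81 and 17.2 CPM in regressing tumours 1 to 4. It was the list's single gene without overlap, 1 of 9 against 1.51% of all genes in that direction. The log2 difference of Cxcl13, -2.24 (SE 0.77), was -2.22 without regressing tumour 4. Ltb, which organises lymphoid tissue, was at 1.07 to 2.97 CPM in terminal and 0.665 to 61.9 CPM in regressing tumours. Among 11 tested checkpoint genes, 10 were lower with a median of -0.77, or -0.46 without regressing tumour 4. Btla, an inhibitory receptor of lymphocytes, was at 0.973, 0.953, 1.07 and 1.83 CPM in terminal and 2.04, 3.02, 3.24 and 16.4 CPM in regressing tumours, without overlap. Of the 11 checkpoint genes it was the only 1 without overlap, against 1.51% of all genes in that direction. Cd274, which encodes PD-L1, was at 5.27, 1.79, 5.77 and 3.02 CPM in terminal and 4.01, 8.71, 2.57 and 23.4 CPM in regressing tumours, and the groups overlapped.

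Antigen presentation, interferon and complement genes were lower in terminal tumours as whole lists, again with overlap in nearly every gene. All 13 class I genes were lower, with a median of -1.27 and 6 of 13 at an unadjusted p under 0.05, against 2.9% of all genes in that direction. The 10 class II genes were lower with a median of -0.91, and the 22 interferon response genes with a median of -1.22. Without regressing tumour 4 those medians were -0.65, -0.43 and -0.33, and the class II median was -1.74 without terminal tumour 4. In the same order they were -0.60, -0.27 and -0.26 without the 3 muscle-rich libraries. With the adipocyte score as a covariate they were -0.68, -0.31 and -0.54. B2m (chromosome 2, 122147686 to 122153083), the shared light chain of class I molecules, was at 884, 584, 727 and 954 CPM in terminal tumours 1 to 4, against 1112, 2018, 562 and 2876 CPM in regressing tumours 1 to 4. Regressing tumour 3 was the lowest of all 8. Psmb8, a subunit of the immunoproteasome, was at 76.6, 39.8, 132 and 83.6 CPM in terminal and 147, 259, 88.2 and 312 CPM in regressing tumours. Irf7, an interferon regulatory factor, ran from 29.8 to 156 CPM in terminal and from 25.8 to 788 CPM in regressing tumours.

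The B2m promoter is shown because it carries a short motif that is also in promoters of the interferon list. In RefSeq promoter windows of GRCm38.p6, 250 bases before to 50 after a gene's start, the interferon-stimulated response element was searched as GAAANNGAAA on both strands. It was in 11 of 18 interferon response genes with a window, in 2 of 11 class I genes (B2m and Erap1) and in 3.44% of all windows. A gene counted if any of its windows matched, whereas the share is of windows, so these are unlike units. A match is a description of these letters and not of binding. The window lies at chr2:122147437-122147736 on the + strand, and capitals mark the motif.
B2m: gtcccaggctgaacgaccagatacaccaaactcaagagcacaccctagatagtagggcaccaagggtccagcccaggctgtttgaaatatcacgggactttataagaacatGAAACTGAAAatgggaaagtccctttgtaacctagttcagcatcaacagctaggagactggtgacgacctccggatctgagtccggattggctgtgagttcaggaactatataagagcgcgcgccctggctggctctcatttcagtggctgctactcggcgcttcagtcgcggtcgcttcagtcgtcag

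Complement genes were lower in 15 of 16, with a median of -0.91, or -0.59 without regressing tumour 4. Without the 3 muscle-rich libraries the median was -0.41, with 12 of 16 lower, and with the adipocyte score as a covariate it was -0.38. In 2 of 16 genes the groups did not overlap, against 1.51% of all genes. C3ar1, a receptor for a complement fragment on myeloid cells, was at 44.0, 28.4, 52.8 and 58.0 CPM in terminal and 79.1, 175, 72.7 and 61.1 CPM in regressing tumours. Cfd, a complement protease that fat cells secrete, was at 3.53, 24.3, 7.53 and 33.7 CPM in terminal and 33.9, 78.8, 57.0 and 273 CPM in regressing tumours. Cfd is also on the adipocyte list, and its log2 difference of -2.68 was -1.71 without regressing tumour 4. Macrophage markers were nearly level: 13 of 19 were lower, the median was -0.12, or 0.05 without regressing tumour 2, and the scores (mean log2 CPM of a list) were 6.67 ± 0.30 in terminal and 6.71 ± 0.48 in regressing tumours. Mertk, a receptor for engulfing dead cells, was the one macrophage gene without overlap, and was higher in terminal tumours. That is 1 of 19 genes, against 2.4% of all genes in that direction. The difference between the lymphoid and macrophage lists was not tested.

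**Figure D2:**
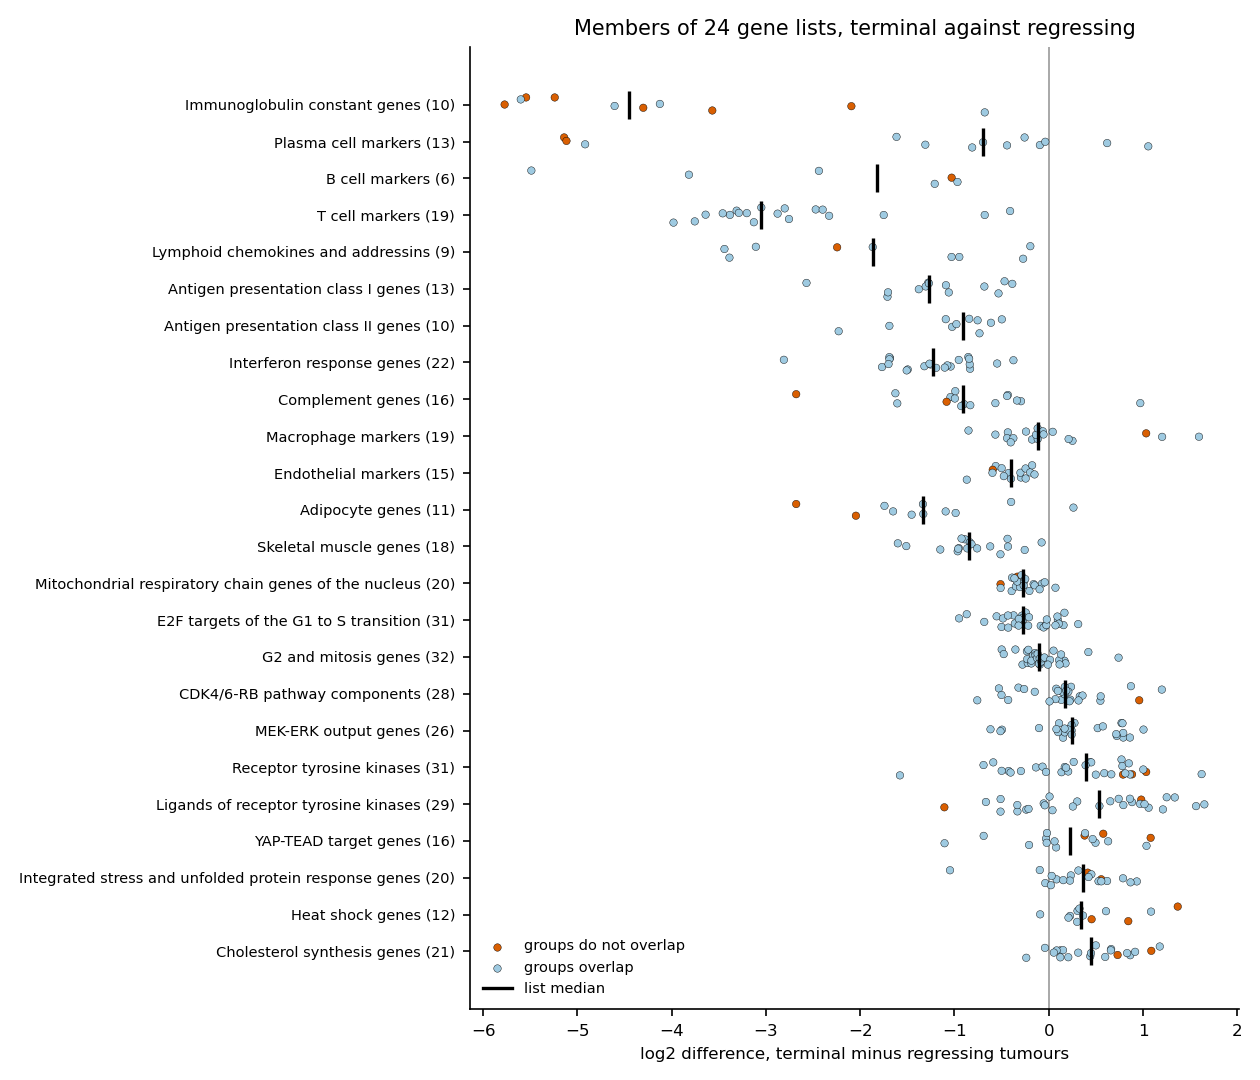
Log2 differences, terminal minus regressing, of the tested members of 24 gene lists (number of genes in brackets); orange points are genes whose groups do not overlap, and black bars are list medians. Immune lists lie to the left, down to a median of -4.45 for immunoglobulin constant genes, and signalling, stress and cholesterol lists lie slightly to the right, up to 0.54 for receptor tyrosine kinase ligands.

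Vessel and fat genes were lower in terminal tumours too. All 15 endothelial markers were lower, with a median of -0.40, or -0.17 without terminal tumour 3. None had an unadjusted p under 0.05, and 1 of 15 was without overlap, against 1.51% of all genes. That gene, Sox18, a vascular transcription factor, was at 19.3, 26.0, 10.4 and 28.7 CPM in terminal and 36.0, 29.7, 31.1 and 30.5 CPM in regressing tumours. Lyve1, a hyaluronan receptor of lymphatic vessels that some macrophages also carry, was at 15.6, 25.1, 14.8 and 20.5 CPM in terminal and 44.0, 97.8, 28.6 and 71.9 CPM in regressing tumours, without overlap. Its difference was -1.67 (SE 0.50) on the log2 scale. Adipocyte genes were lower in 10 of 11, with a median of -1.33, or -0.78 without regressing tumour 4 and -2.68 without terminal tumour 4. Adipoq, which encodes adiponectin, was at 0.665, 9.17, 0.88 and 11.5 CPM in terminal and 13.2, 23.5, 17.1 and 37.8 CPM in regressing tumours. Skeletal muscle genes were lower in 18 of 18 with a median of -0.85, but none was without overlap. The median was 0.25 when regressing tumours 1 and 4 and terminal tumour 2 were left out. Immature and regenerating muscle genes went the other way, with 11 of 13 higher and a median of 0.90. None of these was without overlap, and the median ran from 0.41 to 1.95 over the alternatives tried. Their scores were 0.64 to 5.90 in terminal and 1.07 to 4.59 in regressing tumours.

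Among single genes higher in terminal tumours, Plat had the smallest p of the protein-coding genes with a mean of at least 5 CPM in either group. Plat (ENSMUSG00000031538, chromosome 8, 22757727 to 22782844), tissue plasminogen activator, a secreted protease that makes plasmin, stood at 275, 296, 141 and 217 CPM in terminal tumours 1 to 4, against 67.7, 99.8, 86.2 and 60.2 CPM in regressing tumours 1 to 4. Its log2 difference was 1.57 (SE 0.28), 2.96 times in mean CPM, with an edgeR adjusted p of 0.481 and a DESeq2 adjusted p of 0.000204. Vehicle tumours averaged 167 ± 51.7 CPM, between the treated groups. Of 19 tested matrix proteases and inhibitors 16 were higher, with a median of 0.24. Plat was the only 1 of 19 without overlap, against 2.4% of all genes in that direction. Leaving out terminal tumour 2 gave a median of 0.12, and leaving out terminal tumours 1, 3 or 4 gave 0.46, 0.39 and 0.39.

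The next 9 genes by p were mostly nuclear regulators, each with smaller differences and no overlap. Zmiz1, a transcription coactivator, was at 249, 210, 182 and 238 CPM in terminal and 116, 116, 143 and 125 CPM in regressing tumours, a log2 difference of 0.82 (SE 0.16). Spen, a corepressor that binds RNA, was at 46.3, 48.9, 42.4 and 35.5 CPM in terminal and 19.2, 20.6, 26.3 and 31.4 CPM in regressing tumours. Ccar1, a coactivator of nuclear receptors and the cell cycle, was at 48.5 to 63.3 CPM in terminal and 30.4 to 40.9 CPM in regressing tumours. Ddx17, an RNA helicase, was at 289 to 369 CPM in terminal and 194 to 221 CPM in regressing tumours. Zfp609 (log2 difference 0.66), Midn (0.54) and the cell polarity gene Pard3 (0.51) completed the small differences, and Nav3, a microtubule-associated protein, had 0.84. Ppp1r9a, an actin-binding scaffold of neurons, differed most of these, at 13.9, 9.65, 24.4 and 9.07 CPM in terminal and 5.35, 5.81, 6.25 and 5.4 CPM in regressing tumours. All 10 of the genes with the smallest p were also called by DESeq2, but they were chosen by edgeR's p on the same counts. Neither edgeR nor limma voom called any gene at the adjusted threshold.

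**Figure D3:**
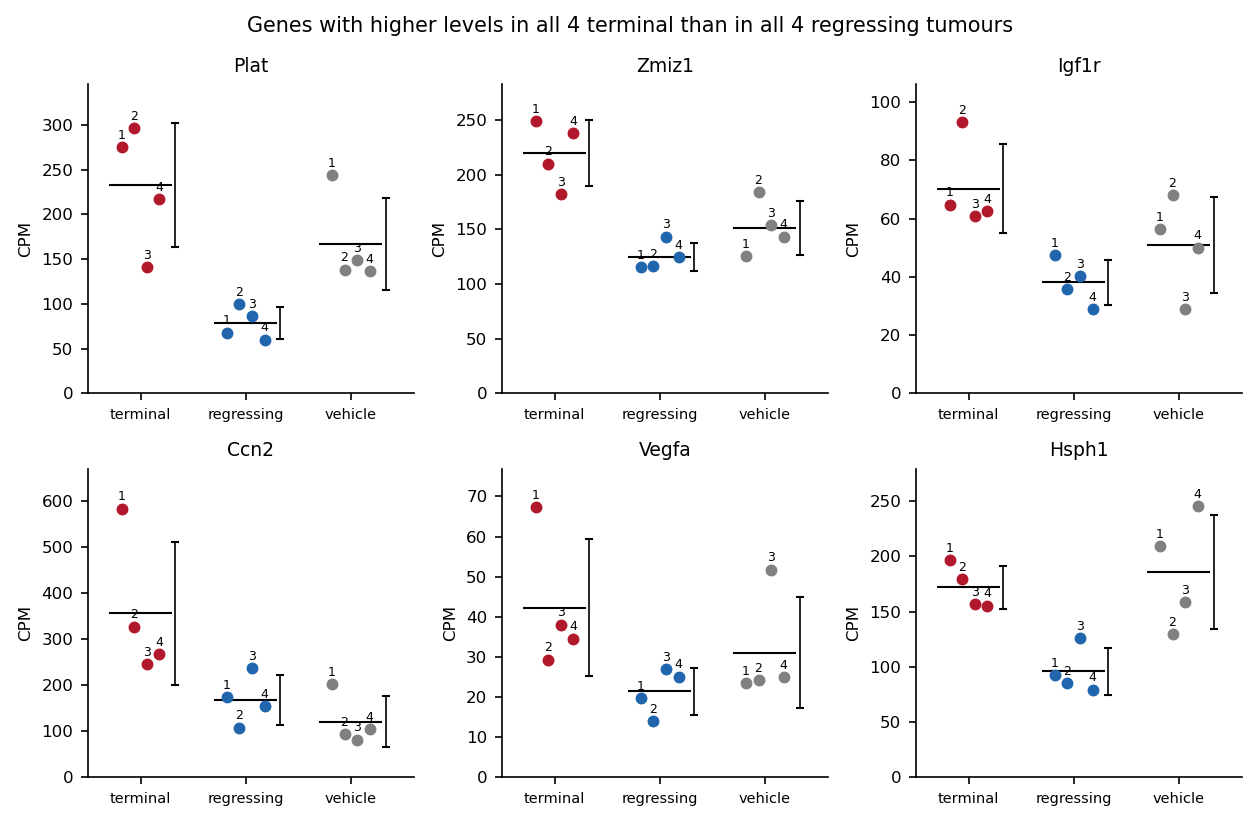
CPM of Plat, Zmiz1, Igf1r, Ccn2, Vegfa and Hsph1 in terminal, regressing and vehicle tumours from left to right (points numbered by replicate, lines for means, bars for SD, n = 4). Every terminal tumour lies above every regressing tumour in each panel, and the ratio of means was 2.96 for Plat, at 232 against 78.5 CPM, and 2.12 for Ccn2.

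The 10 genes lower in terminal tumours with the smallest p were, after Jchain, a mixed set. Icam1, an adhesion molecule that leukocytes bind on vessels, was at 37.8, 13.7, 24.7 and 23.2 CPM in terminal tumours 1 to 4, against 64.2, 45.2, 47.5 and 138 CPM in regressing tumours 1 to 4. Its log2 difference of -1.57 (SE 0.40) was -1.07 without regressing tumour 4. Entpd2, an enzyme that breaks down extracellular ATP, was at 1.74, 4.35, 4.99 and 7.99 CPM in terminal and 21, 9.17, 15.9 and 24.4 CPM in regressing tumours. Ptgir, the prostacyclin receptor, was at 1.91 to 7.53 CPM in terminal and 7.72 to 22.7 CPM in regressing tumours. Spns2, which exports sphingosine-1-phosphate, a lipid that lymphocytes follow, was at 9.34 to 23.4 CPM in terminal and 27.5 to 46.8 CPM in regressing tumours. Dbp, a clock output factor, had a log2 difference of -2.37, and the scavenger receptor family gene Ssc5d had -1.24. The metabolic genes Pcca and Shpk had -0.58 and -1.12. Sept6, a cytoskeletal septin, had -1.33 and was the one of the 10 that overlapped, at 37.7 CPM in terminal tumour 3 and 36.4 CPM in regressing tumour 1.

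Genes of the cell cycle, where palbociclib acts, did not separate the groups. Of 31 E2F targets 24 were lower in terminal tumours with a median of -0.27, and of 32 mitosis genes 23 were lower with a median of -0.10. None of these 63 genes was without overlap or had an unadjusted p under 0.05. E2F scores were 5.09, 4.51, 5.55 and 4.54 in terminal tumours 1 to 4 and 4.59, 5.83, 5.42 and 4.74 in regressing tumours 1 to 4. Each group therefore held a pair of tumours with high and a pair with low scores. Mki67, a protein of proliferating cells, was at 58.1, 33.9, 76.4 and 25.0 CPM in terminal tumours and 28.7, 63.6, 45.0 and 39.3 CPM in regressing tumours, a log2 difference of 0.13 (SE 0.39). Tk1, a thymidine kinase of S phase, was at 15.2 to 72.3 CPM in terminal and 47.6 to 168 CPM in regressing tumours. Over the alternatives tried, the E2F median ran from -0.63 to 0.02 and the mitosis median from -0.71 to 0.21, so neither kept its direction.

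Among 28 components of the CDK4/6-RB pathway, 21 were higher in terminal tumours with a median of 0.17. Cdkn1a alone had no overlap, 1 of 28 genes, where 2.4% of all genes were so in that direction. The median was 0.04 without terminal tumour 1, 0.05 without terminal tumour 3 and 0.27 without terminal tumour 2. With the adipocyte score as a covariate it was 0.01, with 14 genes higher and 14 lower. Cdkn1a, which encodes the CDK inhibitor p21 and is a p53 target, was at 134, 163, 217 and 133 CPM in terminal tumours 1 to 4, against 56.8, 75.5, 91.7 and 108 CPM in regressing tumours 1 to 4. Its log2 difference was 0.96 (SE 0.53), with an edgeR adjusted p of 0.742. Cdk6, a target of palbociclib, was at 55.0, 65.7, 94.8 and 128 CPM in terminal and 72.8, 59.4, 77.1 and 63.7 CPM in regressing tumours. Cdk4, the other target, was at 546, 268, 355 and 294 CPM in terminal and 279, 375, 381 and 293 CPM in regressing tumours, highest in terminal tumour 1. Ccnd1, Ccnd2 and Ccnd3, which encode the D cyclins, had log2 differences of 0.17, 0.55 and 0.32, all with overlap. Ccne1 and Ccne2, which encode the E cyclins that drive CDK2, had -0.43 and -0.50. Rb1 was at 11.1 to 21.7 CPM in terminal and 14.3 to 25.6 CPM in regressing tumours.

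**Figure D4:**
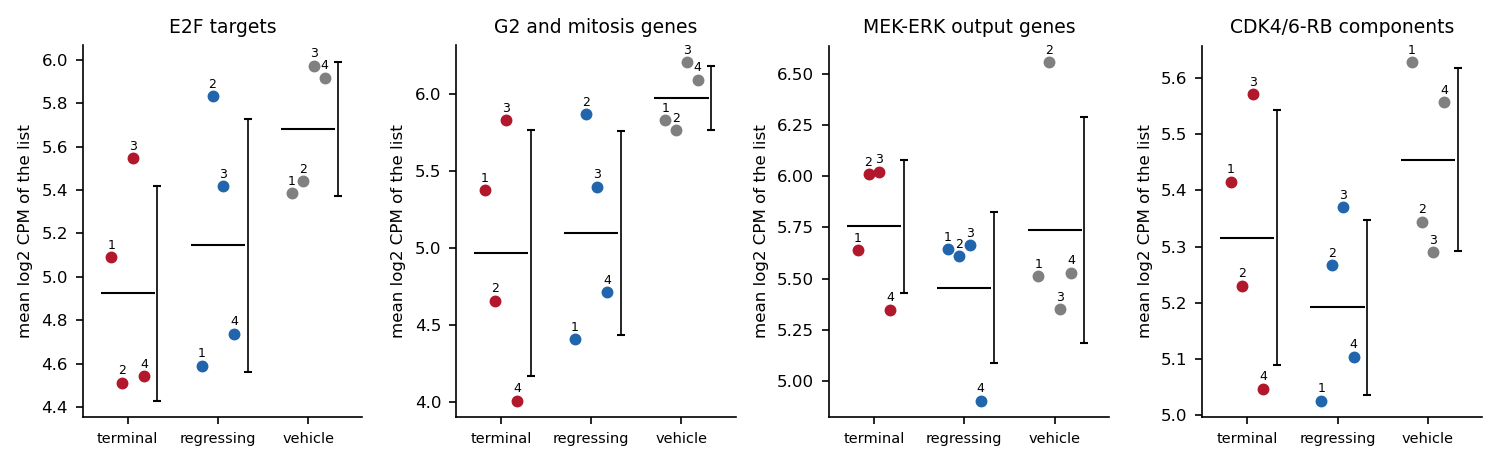
Mean log2 CPM of 4 gene lists in each tumour for terminal, regressing and vehicle tumours from left to right (points numbered by replicate, lines for means, bars for SD, n = 4; axes do not start at 0). Terminal and regressing tumours overlap in all 4 panels, and both groups are spread over more than 1 log2 unit for E2F targets and mitosis genes.

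Genes that ERK switches on, the readout of the pathway mirdametinib blocks, stood slightly higher in terminal tumours. Of 26 output genes 22 were higher, with a median of 0.24, 2 had an unadjusted p under 0.05 (4.12% of all genes in that direction) and none was without overlap. Dusp6, a phosphatase that ERK induces against itself, was at 130, 184, 332 and 67.3 CPM in terminal tumours 1 to 4 and at 103, 111, 129 and 70.9 CPM in regressing tumours 1 to 4. Terminal tumours 1 to 3 were at or above the highest regressing tumour and terminal tumour 4 was below them all. Spred3, a feedback inhibitor of RAS signalling, was at 16.4, 17.1, 20.5 and 11.1 CPM in terminal and 10.1, 12.7, 9.98 and 4.86 CPM in regressing tumours. Epha2, a receptor kinase induced by ERK, was at 66.2, 66.8, 99.7 and 71.7 CPM in terminal and 37.7, 54.2, 68.3 and 17.9 CPM in regressing tumours. Spry2, another feedback inhibitor, ran the other way at -0.50, and Spry4, Etv4, Etv5, Egr1 and Myc had 0.27, 0.11, 0.24, 0.24 and 0.24. Leaving out regressing tumour 4, which had the lowest score of its group, gave a list median of 0.12, leaving out terminal tumour 2 gave 0.13, leaving out regressing tumour 2 gave 0.37, and leaving out the 3 muscle-rich libraries gave 0.04.

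Among 23 tested genes of the pathway itself, 19 were higher in terminal tumours with a median of 0.14, or 0.04 without terminal tumour 2 and 0.06 without regressing tumour 2. Nras, a RAS gene, was without overlap at 121, 103, 116 and 104 CPM in terminal tumours and 86.5, 97.6, 86.8 and 81.1 CPM in regressing tumours, a log2 difference of 0.34 (SE 0.13). It was the only 1 of 23 without overlap, where 2.4% of all genes were so in that direction. Braf, which encodes a RAF kinase, had 0.33 with overlap. Map2k1 and Map2k2, which encode the MEK proteins that mirdametinib binds, had 0.02 (SE 0.20) and 0.05 (SE 0.15). Mapk3, which encodes an ERK protein, had 0.28.

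Receptor tyrosine kinases, which feed RAS from the cell surface, were higher in terminal tumours in 21 of 31 genes, with a median of 0.39 and 3 of 31 without overlap, where 2.4% of all genes were so. Igf1r, the IGF1 receptor, stood at 64.8, 93.2, 60.8 and 62.5 CPM in terminal tumours 1 to 4, against 47.4, 35.9, 40.3 and 28.9 CPM in regressing tumours 1 to 4. The log2 difference of Igf1r was 0.88 (SE 0.26). Ddr1, a collagen receptor, was at 76.1, 75.4, 126 and 98.5 CPM in terminal and 60.2, 41.0, 71.5 and 45.0 CPM in regressing tumours. Mertk was at 19.2, 53.8, 25.1 and 18.4 CPM in terminal and 10.4, 17.6, 13.2 and 15.7 CPM in regressing tumours. Fgfr1, a fibroblast growth factor receptor, was at 406 to 793 CPM in terminal and 305 to 428 CPM in regressing tumours. Receptors known from nerve sheath tumours varied more within groups: Pdgfra was at 77.0 to 980 CPM in terminal and 173 to 573 CPM in regressing tumours, and Egfr had a log2 difference of -0.69. Met, the receptor for hepatocyte growth factor, was highest in terminal tumour 1, at 391 CPM against 94.9 to 234 CPM in the other 3 terminal and 82.9 to 233 CPM in the regressing tumours.

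Ligands of these receptors were higher in 19 of 29, with a median of 0.54, or 0.23 without terminal tumour 3 and 0.36 without terminal tumour 4. Vegfa, the main growth factor of blood vessels, was at 67.3, 29.4, 38.1 and 34.6 CPM in terminal tumours 1 to 4 and 19.8, 14, 26.9 and 25.1 CPM in regressing tumours 1 to 4, without overlap, while the endothelial markers above were lower. Hgf, the ligand of Met, was at 53.9, 41.4, 35.0 and 20.4 CPM in terminal and 12.7, 29.5, 14 and 16.0 CPM in regressing tumours, with terminal tumour 4 inside the regressing range. Fgf2 and Hbegf, ligands of the FGF and EGF receptors, had log2 differences of 1.34 (SE 0.52) and 0.97 (SE 0.39). Tgfa, another EGF receptor ligand, was the one without overlap in the other direction, at 0.627 to 1.55 CPM in terminal and 2.22 to 2.68 CPM in regressing tumours, and was named after its values were seen. Vegfa and Tgfa were 1 of 29 each, against 2.4% and 1.51% of all genes in their directions. With the adipocyte score as a covariate the median of the ligand list was 0.18.

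YAP and TEAD factors act when cells sense stiffness or lose contact. Of 16 tested genes of their target list, 10 were higher and 6 lower, with a median of 0.23. Differences ran from -1.105 to 1.08. Without overlap were 3 of 16, all higher, against 2.4% of all genes in that direction. An unadjusted p under 0.05 was found in 2 of the higher genes (4.12% of all genes) and 1 of the lower (2.9%). Without the 3 muscle-rich libraries the median was 0.13. Ccn2, a matrix protein and classical target, was at 583, 327, 245 and 267 CPM in terminal tumours 1 to 4, against 174, 108, 236 and 154 CPM in regressing tumours 1 to 4. The log2 difference of Ccn2 was 1.08 (SE 0.36). Tead1, one of the factors, was at 182, 232, 194 and 186 CPM in terminal and 153, 162, 161 and 133 CPM in regressing tumours. Yap1 had a log2 difference of 0.35 (SE 0.16) with overlap. Axin2 and Bcl9, a target and a coactivator of Wnt signalling, were seen among the genes without overlap and named after their values were seen: Axin2 was at 15.9, 8.64, 5.92 and 7.76 CPM in terminal and 3.63, 2.50, 3.50 and 3.47 CPM in regressing tumours, and Bcl9 at 30.4 to 42.3 CPM in terminal and 19.9 to 25.7 CPM in regressing tumours.

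Chaperone genes were higher in terminal tumours. Of 12 heat shock genes 11 were higher, with a median of 0.34 and 3 of 12 without overlap (2.4% of all genes), and the list's scores did not overlap, at 7.33 to 7.78 in terminal and 6.83 to 7.29 in regressing tumours. Hsph1, a partner of the HSP70 chaperones, stood at 196, 179, 157 and 155 CPM in terminal tumours 1 to 4, against 92.3, 85.3, 126 and 79.5 CPM in regressing tumours 1 to 4. Its log2 difference was 0.84 (SE 0.21), and vehicle tumours were at 186 ± 51.5 CPM. Dnaja1, an HSP40 cochaperone, was at 191, 207, 209 and 193 CPM in terminal and 139, 150, 166 and 128 CPM in regressing tumours. Hspa1a, an inducible HSP70 with a near-identical neighbour that can share its reads, was at 4.50 to 15.8 CPM in terminal and 2.27 to 4.14 CPM in regressing tumours. Heat shock genes also respond to tissue handling, and the 20 immediate early genes, another handling readout, had a median of 0.13 with 15 higher; the part of handling was not tested.

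The Hsph1 promoter is shown because Hsph1 had the smallest p of the heat shock list and carries the element known to bind heat shock factor. The heat shock element, searched as GAANNTTCNNGAA on both strands of the same windows, was in 3 of 9 heat shock genes with a window (Hspd1, Hspe1 and Hsph1) and in 0.603% of all windows. Genes and windows are again unlike units. In the Hsph1 window, chr5:149636287-149636586 on the - strand, the match lies after the gene's start and is in capitals.
Hsph1: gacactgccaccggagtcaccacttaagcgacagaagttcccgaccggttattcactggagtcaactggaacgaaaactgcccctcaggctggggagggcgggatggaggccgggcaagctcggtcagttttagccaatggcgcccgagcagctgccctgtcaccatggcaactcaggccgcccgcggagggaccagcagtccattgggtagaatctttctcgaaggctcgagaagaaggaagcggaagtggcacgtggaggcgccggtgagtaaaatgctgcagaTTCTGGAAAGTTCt

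The unfolded protein and integrated stress response had 17 of 20 genes higher, with a median of 0.36, or 0.20 without terminal tumour 1, 0.24 without terminal tumour 2 and 0.14 without the 3 muscle-rich libraries. Hspa5, the main chaperone of the endoplasmic reticulum, was at 970, 1171, 987 and 855 CPM in terminal tumours and 730, 823, 840 and 596 CPM in regressing tumours, without overlap. Creld2, another gene of that response, was without overlap at 52.1 to 82.7 CPM in terminal and 31.7 to 49.9 CPM in regressing tumours. Hspa5 and Creld2 were the 2 of 20 genes without overlap, against 2.4% of all genes in that direction. Cholesterol synthesis had 19 of 21 genes higher, with a median of 0.45, or 0.21 without regressing tumour 1 and 0.29 without terminal tumour 3. Sqle, which makes the first oxygenated intermediate, was at 60.5 to 93.3 CPM in terminal and 9.24 to 55.6 CPM in regressing tumours, lowest in regressing tumour 1. Without the 3 muscle-rich libraries the median of the list was 0.13.

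Genes of the respiratory chain were lower in terminal tumours in 19 of 20, with a median of -0.28 and 2 of 20 without overlap (1.51% of all genes). Ndufv1, a subunit of complex I, was at 113, 139, 150 and 104 CPM in terminal and 210, 153, 171 and 186 CPM in regressing tumours. Reads from the mitochondrial genome made up 1.08% ± 0.334 of terminal and 1.49% ± 0.656 of regressing libraries (exact two-sided permutation p = 0.286, n = 4 each). Both measures were highest in regressing tumours 1 and 4, the tumours with the most muscle reads. The list median was -0.15 without the 3 muscle-rich libraries.

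In the Schwann lineage and mesenchymal transition lists no gene was without overlap. Of 16 tested Schwann lineage genes 7 were higher and 9 lower, with a median of -0.13, or 0.07 without terminal tumour 1. Mesenchymal transition genes were higher in 15 of 18 with a median of 0.37, or 0.18 without the 3 muscle-rich libraries, led by Nes, an intermediate filament of neural and muscle precursors, at 54.3, 194, 589 and 257 CPM in terminal and 84.8, 71.0, 137 and 56.2 CPM in regressing tumours. Terminal tumour 1 was below every regressing tumour for Nes. Collagen and matrix genes had a median of 0.12, which was -0.20 without terminal tumour 1 and -0.11 without terminal tumour 4, and scores of 9.23 ± 0.38 in terminal and 9.27 ± 0.26 in regressing tumours. Drug efflux transporters showed 4 of 8 higher and a median of -0.03; Abcg2 was at 23.6 to 40.4 CPM in terminal and 36.4 to 47.2 CPM in regressing tumours.

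Tumours within a group resembled each other about as much as tumours of both groups did. Pearson's correlation of log2 CPM across genes had a median of 0.912 over 6 pairs of terminal tumours, 0.932 over 6 pairs of regressing tumours and 0.92 over 16 mixed pairs; genes are not independent replicates. Each tumour had genes of its own, chosen by their ratio to the highest other library. Terminal tumour 1 had Shox2, a developmental homeobox gene, at 106 CPM against at most 6.56 elsewhere. Terminal tumour 2 had Krt20, a keratin, at 125 CPM against at most 3.22, and terminal tumour 4 had Slc6a4, the serotonin transporter, at 53.7 CPM against at most 5.68. Terminal tumour 3 led in Mmp15, a membrane protease, at 114 CPM against at most 36.8. Regressing tumour 3 had the cartilage genes Cilp2 and Chad at 94.3 and 24.8 CPM against at most 9.78 and 2.57, while Jchain led in regressing tumour 2 and Cd79a and Spib in regressing tumour 4.

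In terminal tumour 4 a block of neighbouring genes was raised together. On chromosome 19, from 5377523 to 6355615 (GRCm38), 43 genes in a row had a running median at least 0.75 log2 units above the median of the other libraries, and the median over the block was 2.26. That tumour had the highest level of all 12 libraries for 37 of the 43. Fosl1, an AP-1 factor and ERK output gene inside the block, was at 84.5, 33.6, 66.8 and 405 CPM in terminal tumours 1 to 4 and 50.3, 90.4, 125 and 27.8 CPM in regressing tumours 1 to 4. Regressing tumour 3 had a shorter raised run of 10 genes over part of the same stretch, with a median of 0.82. Terminal tumour 1 held 3 such blocks of at least 20 genes, all on chromosome 3, and its median over all genes of chromosomes 3, 10 and 15 was 0.63, 0.60 and 0.56 above the other libraries, where the other treated libraries ran from -0.38 to 0.30 over all chromosomes. No regressing tumour and neither of the other terminal tumours held a block of at least 20 genes, and vehicle tumours 3 and 4 held 1 each. DNA copy number was not measured, and its part in these blocks was not tested.

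**Figure D5:**
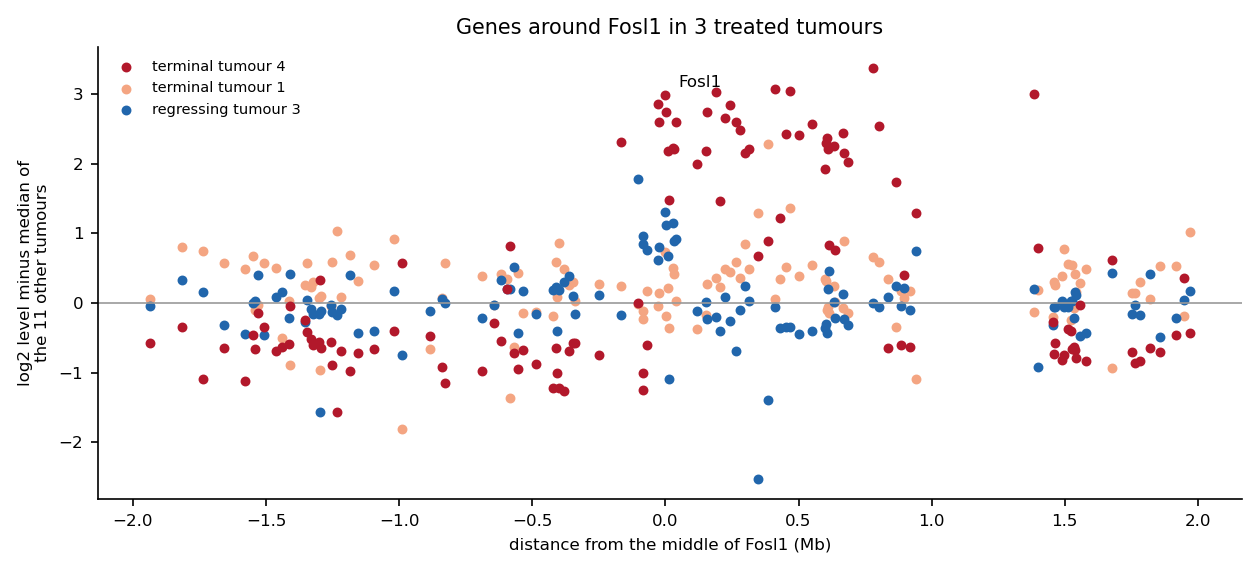
Log2 level of each gene (1 CPM added) minus the median of the 11 other tumours, against distance in Mb from the middle of Fosl1, for terminal tumours 4 and 1 and regressing tumour 3. Terminal tumour 4 shows a raised plateau, with a median of 2.26 over 43 genes, that starts near Fosl1 and ends within 1 Mb, and regressing tumour 3 shows a smaller rise over part of it.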

How the data were processed

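RNA of 12 tumours was sequenced after RNeasy mini extraction and TruSeq Stranded mRNA preparation, per the labels. The authors deposited raw read counts per gene, 1 file a tumour. The submitters' processing notes name HISAT2 2.2.1, Salmon, DESeq2 1.24.0, mm10 and GRCm38.p6 without their roles; the counting tool, strand setting and annotation release are not given in the sources used here. Symbols and coordinates came from GENCODE M21, which held 54495 of the 54532 gene IDs. Columns of per-sample values left unused numbered 0.

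Genes were kept with filterByExpr (minimum count 10, total 15), which left 15650. All 12 libraries entered 1 edgeR 4.0.16 quasi-likelihood fit with TMM normalisation (R 4.3.3), and the terminal minus regressing contrast was tested with Benjamini-Hochberg adjustment at 0.05. Log2 CPM for scores used a prior count of 2. Read shares were compared by exact permutation over 70 arrangements, enumerated in Python. DESeq2 1.42.0 and limma 3.58.1 were alternatives, and the other alternatives are given with their effect at the end. Tables and plots used Python 3.11.15, pandas 2.3.3, numpy 2.4.6, scipy 1.17.1 and matplotlib 3.10.9. The tests were checked on simulated data. Replicate numbers follow accession order and pair nothing. The closest pair of libraries, terminal 3 and vehicle 4, differed by a chi-square of 52.6 per degree of freedom, so no library was counted as a duplicate. Titles of terminal 1, regressing 1 and vehicle 1 and 2 end in FFT, which no label explains, and this was treated as a possible batch. Floors for a count of 0 rest on 3 counts and cover counting error only.

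The comparison, its gene lists (50, with 830 symbols, 762 tested) and its tests were chosen with earlier results of these data known. Genes were named by rule: the 10 of smallest p in each direction among protein-coding genes with a mean of at least 5 CPM in the higher group, since none passed the adjusted threshold; the 4 of smallest p in each described list; a fixed set of pathway genes; and 3 genes of its own for each tumour. Other genes are said to have been named after their values were seen. Raised blocks were runs of at least 20 of 11239 genes (mean of at least 5 CPM) whose median over 9 neighbouring genes was at least 0.75 log2 units above the median of the other libraries. Promoter windows were RefSeq's, on GRCm38.p6. A few genes of the lists are counted but not reported by name here.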

Additional observations from a re-analysis of the deposited data

Results flagged for a closer look

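In 33 of 420 groups of 4 tumours, or 7.86%, 1 tumour stood far from the other 3 by Dixon's ratio, where chance alone flags about 1 in 20 groups. Regressing tumour 4 was the most frequent of them. It was highest in its group for Cd79a (58.0 CPM), Spib (48.1 CPM), Pou2af1 (20.1 CPM), Cd5 (19.8 CPM), Btla (16.4 CPM), Ltb (61.9 CPM), Ccr7 (95.7 CPM), H2-Ob (24.9 CPM), C3 (855 CPM), Rb1 (25.6 CPM) and the adipocyte score (5.59). It was lowest for Npas2 (0.154 CPM) and the MEK-ERK output score (4.91).

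Terminal tumour 4 stood highest in its group for Fosl1 (405 CPM), Jchain (3.88 CPM), Btla (1.83 CPM), Pparg (3.59 CPM) and the plasma cell (2.46), class II (6.87) and complement (5.65) scores. Terminal tumour 3 was highest for Epha2 (99.7 CPM) and lowest for the efflux score (4.18). Terminal tumour 2 was highest for Igf1r (93.2 CPM) and Nr4a2 (25.0 CPM), and terminal tumour 1 for Hsp90b1 (1469 CPM). Regressing tumour 1 was highest for Atp5o (114 CPM), Nfil3 (23.1 CPM) and the efflux score (4.95), and lowest for the YAP-TEAD score (5.15). Regressing tumour 2 was highest for C3ar1 (175 CPM) and lowest for Axin2 (2.50 CPM). Regressing tumour 3 was highest for Myh3 (45.6 CPM) and lowest for Cry1 (11.3 CPM).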

How the results depend on the processing

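The count of 0 genes called by edgeR was also 0 with RLE normalisation, with no or a stricter filter on low counts, with limma voom, in the 8 treated libraries alone, with FFT endings as a covariate or left out, without the 3 muscle-rich libraries, and with a muscle or adipocyte score as covariate. DESeq2 called 51. Leaving out each library in turn gave 0 to 1: without terminal tumour 4, Pcsk6 had a log2 difference of -2.32 and an adjusted p of 0.0106, against -0.82 and 0.788 with all tumours. The cause was not tested.

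Over 23 alternatives, 282 named genes gave 6458 log2 differences, of which 154 had the other sign. The sign was the same throughout in 214 genes, and in all 59 named genes whose groups did not overlap. For those 59, leaving out libraries can hardly reverse the sign, so their constancy is no separate support. The difference in mitochondrial read share, -0.402 percentage points, lay between -0.617 and -0.184 on leaving out each treated library. The difference in immunoglobulin read share, -0.118, lay between -0.152 and -0.0913. No paired analysis was possible because the replicate numbers only follow accession order.

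With 4 tumours a group, the number of tumours limits the precision, and regressing tumours spread widely among themselves. Genes at the level of a count of 0, at most 0.137 to 0.227 CPM, rest on a few reads. Muscle, fat and lymphoid tissue varied between tumours, and in bulk RNA they cannot be told apart from the tumour cells.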

Other observations

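The following genes of the circadian clock, the daily oscillator of most cells, were chosen after their values were seen, from no fixed list, and are given as single genes. Arntl, Clock, Dbp and Nr1d2 were without overlap, and Nr1d1 and Per1 overlapped. Of all genes, 2.4% were higher and 1.51% lower in terminal tumours without overlap. Other clock genes, among them Cry1 and Npas2 flagged above, are not described here, so no shift of the clock as a whole is shown. Arntl, which encodes the activator BMAL1, was at 60.7, 81.7, 20.3 and 37.1 CPM in terminal tumours 1 to 4, against 13.5, 13.2, 11.3 and 10.1 CPM in regressing tumours 1 to 4. Its log2 difference was 2.05 (SE 0.50), without overlap, with an adjusted p of 0.692 by edgeR and 0.0253 by DESeq2. Clock, its partner, had a log2 difference of 0.43. Dbp, an output factor that the activators induce, ran the other way at 7.47, 16.0, 5.13 and 11.5 CPM in terminal and 57.0, 18.6, 41.9 and 89.8 CPM in regressing tumours. Nr1d2, which encodes a repressor of Arntl, was at 23.2, 47.4, 15.2 and 34.7 CPM in terminal and 60.02, 49.0, 62.6 and 98.0 CPM in regressing tumours, without overlap. Nr1d1, a related repressor, had -0.99, with overlap, and Per1, another clock repressor, had 1.28, at 148, 66.1, 25.4 and 19.3 CPM in terminal and 30.3, 15.3, 23.2 and 38.2 CPM in regressing tumours. The hour of harvest is not among the labels used here, and its part in these values was not tested.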
